A study of Mus musculus with 4 samples.

Results

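The BLA barcode is a 15-base sequence at the 3′ end of an EGFP transcript that marked mouse prefrontal neurons whose axons reach the basolateral amygdala (BLA). It was 1 of 5 barcodes, each packaged in its own rAAV2-retro vector and injected into its own target, the others being agranular insular cortex (AI), lateral hypothalamus (LH), dorsomedial striatum (DMS) and the mediodorsal thalamus (MD). Its UMI count (the number of distinct transcript molecules read with the barcode) was taken in every cell that carried a cell type annotation of the study, which were 20047 of the 24788 cells in the barcode tables. The annotation left out cells with the highest sums over the 5 barcodes, BLA included, and beyond that no cell was chosen by its BLA count. Of these cells, 8210 were excitatory neurons with 1 of 7 subtype names. A neuron was BLA-valid when its BLA count was above 35 UMIs, which held for 163 neurons, and BLA-only when no other barcode was above its own threshold (AI 28, DMS 101, MD 114, LH 103 UMIs), which held for 60.

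Male C57BL/6 mice, 8 weeks old, received all 5 vectors on 1 side, and the prelimbic and infralimbic cortex, here the ventromedial prefrontal cortex, was dissected 6 weeks later. Cells of 3 mice were loaded without sorting, 1 library per mouse (mouse 1, 2 and 3). EGFP-positive cells of 3 other mice were FAC-sorted and pooled in 1 library, called the sorted pool, in which the animals cannot be told apart. All mice were injected, so the background of the barcode was measured in the non-neuronal cells of the same libraries. A short CAG promoter, active in most cell types, drove the transcript, and a barcode count therefore depends on uptake at the axon, on expression in the cell and on capture of the transcript.

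The basolateral amygdala assigns positive and negative value to sensory cues and is best known for its role in learned fear. It exchanges dense projections with the medial prefrontal cortex. rAAV2-retro is taken up by axon terminals and carried back to the cell body, so that it marks cortical neurons by the place of their axon. Cortical axons to the amygdala come mostly from intratelencephalic pyramidal neurons, whereas corticothalamic neurons of the deep layer send their main axon to the thalamus.

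The 5 barcodes are shown because every count below depends on telling BLA from the others. Capitals mark the positions at which a barcode differs from that of BLA, read 5′ to 3′.
BLA: aagacgccgtcgcaa
AI: CTgCACcGACGCATT
DMS: GaAGGCAcAGACTTT
MD: GTTGGCTGCAATcCa
LH: TaTTcgGAgGACGaC
The AI, DMS and MD barcodes differed from BLA at 13 of 15 positions and the LH barcode at 10, while reads were assigned with up to 2 mismatches. Of 2947632 reads given to BLA, 97.9% matched it exactly. The remaining reads held all 45 possible sequences with 1 mismatch. The 3 commonest are shown with the changed base in capitals, positions being counted from 1 at the 5′ end and the designed base being written before the position.
A15C: aagacgccgtcgcaC
G3T: aaTacgccgtcgcaa
C13A: aagacgccgtcgAaa
A15C made up 0.471% of all BLA reads, G3T 0.142% and C13A 0.102%. Among reads with exactly 1 mismatch, the last position was the most variable, its mismatches making up 0.507% of all BLA reads, against 0.0421% for position 4, the least variable one. Reads with 2 mismatches were not counted there. A15C took 0.687%, 0.173% and 0.528% of BLA reads in mice 1, 2 and 3 and 0.613% in the sorted pool, the lowest share being that of mouse 2.

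BLA was the rarest of the 5 barcodes in the reads. It took 2.68%, 3.13% and 2.81% of the barcode-matched reads of mice 1, 2 and 3 and 2.80% of those of the sorted pool, out of 18589105 to 30134674 matched reads a library. The reads spread over 8042, 7439 and 7239 recovered cells in the unsorted mice and over 2068 in the sorted pool, which gave 2312 to 4163 matched reads per cell without sorting and 12652 in the sorted pool. BLA UMIs were read 18.5 to 22.7 times on average, but the median was 1 read in each library and 62.6% to 71.8% of BLA UMIs rested on a single read. Among annotated cells, 105 carried a cell barcode that also occurred in another library. Of the BLA-valid neurons 1, in mouse 3, was among them, and without these cells 162 neurons were BLA-valid.

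Non-neuronal cells, which send no axon to the amygdala, gave the background. BLA was counted at 2 UMIs or more, the lowest count above 0 that the tables list for it, in 2.34%, 4.71% and 4.58% of the non-neuronal cells of mice 1, 2 and 3 and in 37.0% of those of the sorted pool (27 of 73 cells, exact Clopper-Pearson 95% interval 26.0% to 49.1%). Intervals of this kind cover counting error only. The sorted pool thus had the highest background, with few non-neuronal cells behind it and with a median transcriptome of 7417 UMIs in them, against 3988 to 4277 in the unsorted mice. Those 73 cells had also passed the gate for EGFP-positive cells, and the EGFP transcript carries the barcodes. Over all libraries the share was 4.20% in microglia, 3.54% in endothelial cells, 4.61% in oligodendrocyte precursors, 4.46% in oligodendrocytes, 3.23% in astrocytes and 1.18% in activated microglia (1 of 85 cells). The non-neuronal types therefore lay close to each other. The count that 1 in 1000 of the 9822 non-neuronal cells passed, here the background limit, was 9.18 UMIs. None of these cells was above the threshold, and a count of 0 allows a share of up to 0.0305%. Per the study's methods, each threshold was the higher of 2 cut-offs that about 1 in 1000 control cells passed. The controls were non-neuronal cells and sorted cells without EGFP transcripts. Few non-neuronal cells could therefore pass, so this share is not an independent rate of false calls.

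A few non-neuronal cells had counts far above the rest. The highest was a microglial cell of mouse 3 with 35 UMIs, exactly at the threshold, in which the other barcodes had 5 (AI), 19 (DMS), 12 (MD) and 10 (LH) UMIs and the transcriptome 3856. The next cells had 18, 18 and 17 BLA UMIs and carried 160 to 237 DMS UMIs. BLA thus had the most UMIs in the microglial cell and DMS in the 3 others.

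Inhibitory neurons lay between non-neuronal cells and excitatory neurons. Their mean BLA count was 0.206, 0.532 and 0.751 UMIs in mice 1, 2 and 3, against 0.0654, 0.134 and 0.134 in non-neuronal cells of the same mice. In the sorted pool 8 inhibitory neurons averaged 6.62 UMIs and 73 non-neuronal cells 1.05. The difference was positive in 4 of 4 libraries (mean 1.68 UMIs, or 0.385 without the sorted pool, exact sign-flip permutation test, p = 0.125, Benjamini-Hochberg adjusted p = 0.125), which is the smallest p that 4 libraries allow. Inhibitory neurons were also deeper, with a median of 13184 transcriptome UMIs against 4114 in non-neuronal cells. Per 10000 transcriptome UMIs the level in mouse 1 was 0.151 in inhibitory neurons and 0.148 in non-neuronal cells, and the mean difference over libraries was 0.619, or 0.104 without the sorted pool. This difference per 10000 was positive in only 2 of 4 libraries when counts of 1 were kept (mean 0.420, exact permutation p = 0.875) or when UMIs had to have at least 2 reads (mean 0.268, p = 0.5).

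None of the 1420 inhibitory neurons passed the threshold, which allows a share of up to 0.211%. The highest had 35 UMIs, again exactly at the threshold, in mouse 3, with 21 DMS UMIs and no valid barcode. The next had 28 UMIs in the sorted pool and was valid for AI, DMS, MD and LH at the same time. Of the 7 inhibitory neurons above 10 BLA UMIs, 6 came from mouse 3.

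Excitatory neurons that did not pass the threshold still carried more BLA than the background. Their mean count per library was 2.04 to 8.99 UMIs above that of non-neuronal cells (4 of 4 libraries, mean 4.55, exact sign-flip permutation test, p = 0.125, adjusted p = 0.125). Per 10000 transcriptome UMIs the difference was 0.883 to 2.31, with a mean of 1.51, again in 4 of 4 libraries. When a UMI that several barcodes of a cell had was given to the one with the most reads, the mean differences were 1.19 UMIs and 0.240 per 10000, still positive in 4 of 4 libraries. In 60.2% of all 8805 excitatory neurons BLA reached 2 UMIs, with a median transcriptome of 22607 UMIs, against 4.06% of non-neuronal cells with a median of 4114.

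BLA-valid neurons were few in every library. They made up 22 of 2440 excitatory neurons with a subtype in mouse 1 (0.902%, 95% interval 0.566% to 1.36%), 25 of 2146 in mouse 2 (1.16%, 0.755% to 1.71%) and 37 of 2119 in mouse 3 (1.75%, 1.23% to 2.40%). The mean was 1.27% ± 0.432 (SD, n = 3). In the sorted pool 79 of 1505 neurons were BLA-valid (5.25%, 4.18% to 6.50%), above every mouse. The difference was 3.98 percentage points (exact one-sided permutation test of 1 library against 3, p = 0.25, the smallest this design allows). The sorted pool differed from the mice in its gate for EGFP-positive cells, its animals and its reads per cell, and with 1 sorted library these cannot be told apart. After thinning to an equal number of reads per cell, the share was 1.33% in the sorted pool and 0.902%, 0.746% and 1.46% in the unsorted mice, inside their range. That thinning kept 18.3% of the reads of the sorted pool and 100%, 61.9% and 55.5% of those of mice 1, 2 and 3. Before it, BLA UMIs had 18.5 to 22.7 reads on average in each library, and the threshold stayed at 35 UMIs. A lower sorted share thus follows in part from this setting. When UMIs had to have at least 2 reads, the sorted share was 1.40% and the unsorted shares 0.369%, 0.466% and 0.944%.

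Just inside the threshold, 26 neurons had 36 to 40 UMIs, 17 of them in the sorted pool. Just outside, 48 neurons had 31 to 35 UMIs, 41 of them in the sorted pool. Pooled over libraries, the 2 sides had medians of 32995 and 33462 transcriptome UMIs and of 692 and 681.5 UMIs over all 5 barcodes. The sorted pool was deeper than the unsorted mice and made up unlike parts of the 2 sides. Depth within a library was not compared.

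The 7 subtypes, named by the study for a layer and a gene, had BLA-valid shares that spanned a wide range. Gene expression was not analysed here, so the names were not checked against markers. L5-S100b, named for a calcium-binding protein, held 70 of the 163 neurons (42.9%), although it made up 954 of the 8210 neurons. Its share was 3.06%, 7.33% and 10.5% in mice 1, 2 and 3 and 9.71% in the sorted pool, 6.95% ± 3.72 (SD, n = 3) in the unsorted mice. In each library it lay above that of the other subtypes together, by 2.46 to 9.59 percentage points (mean 6.07). L2/3-Calb1, named for the calcium buffer calbindin, came next with 1.94%, 4.08% and 4.21% in mice 1 to 3 and 18.4% in the sorted pool (7 of 38 neurons, interval 7.74% to 34.3%). It exceeded the other subtypes together in 4 of 4 libraries, by 1.09 to 13.5 percentage points (mean 5.06), or by 2.24 on average without the sorted pool. In these comparisons the other subtypes were pooled, and 4819 of the 8210 neurons were L6-Syt6, of which 0.477% were BLA-valid. Each difference thus includes that low share, and the pooled comparison was not repeated without L6-Syt6. Against L2/3-Rorb alone, L2/3-Calb1 was higher in 3 of 4 libraries and lower in mouse 1.

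L2/3-Rorb, named for a nuclear receptor of middle and upper layers, had shares of 2.14%, 3.74% and 2.38% in mice 1 to 3 and 6.42% in the sorted pool. L6-Npy, named for neuropeptide Y, had 3.02%, 1.26% and 2.40% and, after sorting, 5.78%. Both were above the pooled other subtypes in 4 of 4 libraries, but by small margins of 0.675 to 2.71 and 0.102 to 2.38 percentage points. Since L6-Syt6 made up most of that pool, these margins do not show a raised share among the remaining subtypes. Both lay below L5-S100b in each library. L5-Bcl6, named for a transcriptional repressor, had no BLA-valid neuron in mice 1 (0 of 90, which allows up to 3.33%) and 2 (0 of 60, up to 5.00%), 2 of 60 in mouse 3 and 1 of 60 after sorting. Its share in the unsorted mice thus rested on 2 neurons of 1 mouse.

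In the means of the unsorted mice the lowest shares were those of L5-Htr2c, named for a serotonin receptor, and of L6-Syt6, named for a synaptotagmin of corticothalamic neurons. No L5-Htr2c neuron was BLA-valid in any library (0 of 320, which allows a share of up to 0.938%), and the highest count in that subtype was 11 UMIs. L6-Syt6, the largest subtype, had 0 of 1426, 0 of 1354 and 2 of 1300 BLA-valid neurons in mice 1, 2 and 3. In the sorted pool 21 of 739 L6-Syt6 neurons were BLA-valid (2.84%, interval 1.77% to 4.31%), so that this subtype gave 2 of the 84 unsorted and 21 of the 79 sorted BLA-valid neurons. L5-Bcl6 had 1 of 60 there (1.67%). With shared UMIs given to the leading barcode, with thinned reads, with UMIs of at least 2 reads or at 1.5 times the threshold, 1 of the 739 sorted L6-Syt6 neurons was BLA-valid, and 1 of 60 for L5-Bcl6. The mean difference from the other subtypes was -2.32 percentage points for L5-Htr2c, or -1.33 without the sorted pool, which held only 4 neurons of it (0 of 4, interval up to 60.2%). With a count of 0 in each library its sign was fixed by the others. L6-Syt6 was below the other subtypes in 4 of 4 libraries (-3.54).

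Over the 7 subtypes, the exact sign-flip permutation test gave p = 0.125, the smallest 4 libraries allow, for the 6 subtypes other than L5-Bcl6, and p = 0.5 for L5-Bcl6. The Benjamini-Hochberg adjusted p were 0.146 and 0.5. These 7 differences were not independent, because each subtype was part of the pool that the others were set against. For L5-Htr2c, p was fixed by its lack of BLA-valid neurons. In the order of the unsorted means (L5-S100b 6.95%, L2/3-Calb1 3.41%, L2/3-Rorb 2.75%, L6-Npy 2.22%, L5-Bcl6 1.11%, L6-Syt6 0.0513%, L5-Htr2c 0%) none of the 6 neighbouring pairs differed in the same direction in every library, with exact permutation p of 0.25 to 1 and adjusted p of 0.75 to 1. With the threshold lowered to the background limit, 1461 neurons passed, of which 616 were L6-Syt6 and 344 L5-S100b. L5-S100b then still exceeded the other subtypes, by 18.3 percentage points, whereas L2/3-Calb1 was 3.43 percentage points below them.

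The mean BLA count over all neurons of a subtype, which uses no threshold, was highest in L5-S100b in mice 2 and 3 and the sorted pool, and lowest in L5-Htr2c in each library, but L2/3-Calb1, next to L5-S100b by its valid share, was among the lower ones in the unsorted mice. It was 5.23, 11.7 and 17.1 UMIs for L5-S100b in mice 1, 2 and 3 and 23.8 in the sorted pool. In mouse 1 L2/3-Rorb was higher, with 5.86 UMIs. The mean was 0.336, 0.969 and 0.887 UMIs for L5-Htr2c, and 1.69, 3.13 and 3.13 for L6-Syt6. L2/3-Calb1 averaged 5.18 ± 2.60 UMIs (SD, n = 3), below L2/3-Rorb (7.35 ± 1.30), L6-Npy (6.28 ± 1.01) and L5-Bcl6 (6.01 ± 1.87), all within the spread between mice. Within each of mice 1, 2 and 3 it lay below L2/3-Rorb and L6-Npy, whereas in mouse 2 L5-Bcl6 (6.25) was below L2/3-Calb1 (6.36). This order depended on the scale. Per 10000 transcriptome UMIs the unsorted mean was 2.69 in L2/3-Calb1, 3.41 in L2/3-Rorb, 3.11 in L6-Npy and 2.61 in L5-Bcl6. As a share of all barcode UMIs, BLA took 6.74% in L2/3-Calb1, against 4.74%, 4.71% and 3.95%. L2/3-Calb1 averaged 17.4 UMIs in the sorted pool and L2/3-Rorb 17.3. In the sorted pool L6-Syt6 averaged 11.3 UMIs, close to the 12.1 of L6-Npy and 13.1 of L5-Bcl6. L6-Syt6 was also the deepest subtype there, with a median of 35305 transcriptome UMIs against 25420 in L6-Npy.

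The strength of the label among BLA-valid neurons spanned 36 to 463 UMIs, with a median of 60. The median was 53.5, 63 and 76 UMIs in mice 1, 2 and 3 and 48 in the sorted pool. The sorted pool thus had the lowest median but also the highest maximum, 463 against 172 to 196. In it 57.0% of the BLA-valid neurons were under 1.5 times the threshold, against 50.0%, 40.0% and 16.2% in the unsorted mice. The 6 strongest neurons, with 230 to 463 UMIs, were all from the sorted pool, 5 of them L5-S100b and 1 L2/3-Rorb, and each was also valid for AI and DMS.

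The medians of the subtypes that could be compared overlapped between libraries. L5-S100b had medians of 49, 53 and 79 UMIs in mice 1, 2 and 3 and 60 after sorting, L6-Npy 61.5, 79, 65.5 and 63, and L2/3-Rorb 81, 65, 76 and 46. L2/3-Calb1 could be compared in 3 libraries with medians of 70, 96 and 54. Against the other subtypes the mean differences were -2.50 UMIs for L5-S100b (2 of 4 libraries higher), 10.1 for L6-Npy (3 of 4), 7.62 for L2/3-Rorb (2 of 4) and 11.0 for L2/3-Calb1 (3 of 3). The exact sign-flip permutation p lay between 0.25 and 0.75 and the adjusted p between 0.5 and 0.75. No p could pass 0.05 in this design. The single differences were 6 to 20 UMIs for L2/3-Calb1, all of 1 sign, and spanned both signs for L5-S100b (-19 to 13), L6-Npy (-11.5 to 23) and L2/3-Rorb (-2.50 to 31). L6-Syt6 neurons of the sorted pool stood at the low end, with a median of 42 UMIs and 1 of 21 above 70, but could not be tested, since only 1 library had 3 or more of them.

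The reads behind each UMI differed between classes of neurons. A UMI was counted as shared when the same cell had it with another barcode, and BLA was its leading barcode when BLA had the most reads of it or had it alone. Over all cells of the tables, 63.5% to 72.2% of the BLA UMIs of a library were shared, and BLA led in 9.30% to 16.9% of the shared ones. Of the shared ones 94.3% to 97.6% occurred with DMS, 66.2% to 91.7% with MD, 63.4% to 84.1% with LH and 39.1% to 54.1% with AI. AI UMIs were shared in 59.1% to 66.9%. In BLA-only neurons 30.9% of BLA UMIs were shared and BLA led in 92.3% of these. In the 1887 neurons valid for other barcodes but not for BLA, 81.8% were shared and BLA led in 1.27%. The plain BLA count of the second class thus consisted mostly of UMIs in which another barcode had more reads. Both classes were cut on the counts of these same UMIs, so that the contrast follows in part from their definition.

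Counted by leading UMIs alone, the unsorted BLA-valid neurons changed little and many of the sorted ones lost most of their count. In mice 1, 2 and 3 every BLA-valid neuron (22, 25 and 37) had BLA leading in at least 50% of its BLA UMIs, with medians of 97.6%, 96.8% and 94.6%. In the sorted pool this held for 43 of 79 neurons (54.4%). The 21 sorted L6-Syt6 neurons had a median of 42 BLA UMIs but of 5 leading ones, and 1 of the 21 had more than 10. The 27 sorted L5-S100b neurons had a median of 60 UMIs and 56 leading ones, and 20 of them had more than 10. The 7 sorted L2/3-Calb1 neurons had 54 and 53, with 6 above 10, and the 7 sorted L2/3-Rorb neurons 46 and 9, with 3 above 10. With shared UMIs given to their leading barcode, 113 neurons stayed above 35 UMIs, 20, 21 and 33 in the unsorted mice and 39 after sorting, of which 1 was L6-Syt6. The sorted share was then 2.59%, against 0.820%, 0.979% and 1.56% in the unsorted mice.

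Reads per UMI differed in the same way. BLA UMIs of L6-Syt6 BLA-valid neurons had 22.0 reads on average, against 62.3 to 73.9 in the 5 other subtypes that held any. Of the BLA UMIs in BLA-only neurons 47.1% had at least 2 reads, and the UMIs averaged 69.2 reads. In neurons valid for other barcodes only, BLA UMIs averaged 2.88 reads, in neurons with no valid barcode 4.97, and in non-neuronal cells 3.87. The classes of neurons were again cut on UMI counts.

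Some neurons at or below the threshold had BLA as a leading barcode too. Of 8047 such neurons, 58 (0.721%) had more than 10 leading BLA UMIs, against 1 of 9822 non-neuronal cells and 1 of 1420 inhibitory neurons, the same cells that stood at 35 UMIs. They were 14, 13 and 7 neurons in mice 1, 2 and 3 and 24 in the sorted pool. By subtype they were 23 of 884 L5-S100b, 14 of 998 L6-Npy, 6 of 317 L2/3-Calb1 and 6 of 465 L2/3-Rorb neurons. The others were 4 of 267 L5-Bcl6 and 5 of 4796 L6-Syt6 neurons, and none of the 320 L5-Htr2c neurons was among them. L6-Syt6, with 4796 of the 8047 neurons, gave 504 of the 1110 with more than 10 BLA UMIs and 5 of the 58 with more than 10 leading ones.

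BLA counts moved with those of the other barcodes in the same cell. Across neurons of a library, Spearman's rho between BLA and any other barcode was 0.693 to 0.772 (n = 1505 to 2440 neurons, which share library, depth and, for many UMIs, the UMI itself). With transcriptome UMIs it was 0.230 to 0.253 in mice 1 to 3 and 0.374 in the sorted pool. These are descriptions of cells within a library and not of animals.

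BLA-only neurons numbered 17 of 22 BLA-valid neurons in mouse 1 (77.3%, 54.6% to 92.2%), 13 of 25 in mouse 2 (52.0%, 31.3% to 72.2%) and 14 of 37 in mouse 3 (37.8%, 22.5% to 55.2%), 55.7% ± 20.0 (SD, n = 3). In the sorted pool they were 16 of 79 (20.3%, 12.0% to 30.8%), below each mouse by the value, with an interval that overlapped that of mouse 3. The difference was -35.5 percentage points (exact one-sided permutation test of 1 library against 3, p = 0.25, the smallest possible). After that thinning, which took away most reads of the sorted pool, it turned to 13.7. The BLA-only share was then 85.0% after sorting and 77.3%, 68.8% and 67.7% in the unsorted mice. With shared UMIs given to their leading barcode the shares were 90%, 66.7% and 69.7% in mice 1, 2 and 3 and 61.5% after sorting.

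The 60 BLA-only neurons were 22 L5-S100b, 16 L6-Npy, 12 L2/3-Calb1, 4 L2/3-Rorb, 3 L5-Bcl6 and 3 L6-Syt6 neurons. All 3 BLA-valid L5-Bcl6 neurons and 12 of the 17 BLA-valid L2/3-Calb1 neurons were BLA-only, against 22 of 70 for L5-S100b, 16 of 33 for L6-Npy, 4 of 17 for L2/3-Rorb and 3 of 23 for L6-Syt6. These counts pool libraries with unlike BLA-only shares. In the unsorted mice alone they were 8 of 10 for L2/3-Calb1, 18 of 43 for L5-S100b and 10 of 17 for L6-Npy. L2/3-Rorb had 4 of 10 there, and L5-Bcl6 and L6-Syt6 each had 2 of 2. For L5-S100b the BLA-only share was 66.7%, 28.6% and 40.0% in mice 1, 2 and 3 and 14.8% after sorting. It was below that of the other subtypes in 3 of 4 libraries (mean difference -18.7 percentage points, exact sign-flip permutation test, p = 0.25), with single differences from -53.2 to 4.71, a spread wider than the mean difference. Without mouse 2 the mean difference was -7.17, and with the BLA threshold at the background limit it was -0.00254, with 2 libraries on each side. Both L6-Syt6 neurons of the unsorted mice were BLA-only, with 55 and 117 UMIs. Their median transcriptome was 17043 UMIs, which with 2 neurons does not give the depth of either.

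BLA-only did not mean free of the other barcodes. The median sum of the other 4 was 84, 119 and 117.5 UMIs in the BLA-only neurons of mice 1, 2 and 3 and 145 after sorting, against 28, 42, 41 and 126 in neurons of the same libraries with no valid barcode. It was higher in 4 of 4 libraries (mean difference 57.1 UMIs, exact sign-flip permutation test, p = 0.125). Each of the 4 barcodes was higher too, DMS by 23.2, MD by 12.9, LH by 12.1 and AI by 9.75 UMIs on average (4 of 4 libraries each, permutation p = 0.125, adjusted p = 0.125). With shared UMIs given to their leading barcode, the difference of the sum was 9.38 UMIs and was positive in 3 of 4 libraries (exact permutation p = 0.25). DMS was then higher by 7.75 and AI by 1.5 UMIs in 4 of 4 libraries, whereas MD differed by 0.50 (2 of 4 higher) and LH by 0.25 (3 of 4).

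DMS and AI were the barcodes nearest to passing. In 22 of the 60 BLA-only neurons DMS had more UMIs than BLA, and BLA was the barcode with most UMIs in 38. BLA took 36.2% of all barcode UMIs in the median BLA-only neuron and at most 54.4%. In 48 of the 60 neurons at least 1 other barcode was above 50% of its threshold, mostly DMS (38 neurons) or AI (31), rarely MD (2) or LH (1). In the unsorted mice DMS and AI were near equal (25 and 24 neurons), and in the sorted pool they were 13 and 7. With the other 4 thresholds set to 50% of their value, 12 neurons remained BLA-only.

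A further barcode was valid in 103 BLA-valid neurons, 63 of them in the sorted pool. DMS was valid in 92 BLA-valid neurons, AI in 77, MD in 37 and LH in 22, and all MD and LH partners were in the sorted pool. The combination of all 5 barcodes was found in 20 neurons, 14 of them L6-Syt6, and that of AI, DMS, MD and BLA in 17, again all after sorting. The commonest pair was DMS with BLA (26 neurons) and the commonest set of 3 was AI, DMS and BLA (27 neurons, 20 of them L5-S100b). These counts depended on how UMIs were counted. Of the BLA-valid neurons, 79 of 113 were BLA-only with shared UMIs given to the leading barcode, 66 of 89 with thinned reads and 51 of 60 with UMIs of at least 2 reads, against 60 of 163 as reported here, so that fewer neurons carried a further barcode. The sorted L6-Syt6 neurons, which gave most of the sets of 5, fell from 21 to 1 BLA-valid neuron under each of the 3 settings.

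Set beside the other targets, BLA had the lowest threshold after AI and the fewest valid neurons. The share of valid neurons with that barcode alone was 46.8% for BLA averaged over the 4 libraries, 32.7% for AI, 52.4% for DMS, 61.1% for MD and 61.0% for LH. The BLA share was above that of AI in 4 of 4 libraries (mean difference 14.1 percentage points, 4.72 to 19.3) and below those of MD (-14.2, -19.9 to -10.5) and LH (-14.2, -21.8 to -9.16) in 4 of 4. The exact sign-flip permutation p was 0.125 and the adjusted p 0.167 for these 3, and 0.375 for DMS (-5.59, or -1.14 without the sorted pool, higher in 1 of 4 libraries). These shares depended on the thresholds and on how UMIs were counted. With shared UMIs given to the leading barcode they were 72.0% for BLA and 66.5% for AI (difference 5.49, higher in 3 of 4 libraries), and with UMIs of at least 2 reads 89.0% and 83.4%, when the difference from LH was 7.38. With the other 4 thresholds at 50% the difference from AI was 3.91, with 2 libraries on each side. With each of the 5 at its own background limit the difference from AI was -9.70, with BLA lower in 4 of 4 libraries. The BLA threshold was 3.81 times its background limit of 9.18 UMIs, whereas the AI threshold was 1.22 times its own of 23 UMIs.

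BLA-valid neurons were deeper than neurons with no valid barcode. Their median transcriptome was 20500, 24774 and 24245 UMIs in mice 1, 2 and 3 and 32038 in the sorted pool, against 20432, 21283, 22100 and 28890. The difference was positive in 4 of 4 libraries (mean 2213 UMIs, exact sign-flip permutation test, p = 0.125) but as small as 67.5 UMIs in mouse 1. It was positive in 3 of 4 libraries with deep neurons left out (mean 1256), with shared UMIs resolved (1309) and with thinned reads (1412). Within L5-S100b it was larger, 3346 to 8473 UMIs, with a mean of 5537 (4 of 4 libraries, permutation p = 0.125). BLA-only neurons had medians of 20114, 21937 and 24470.5 UMIs in mice 1, 2 and 3 and 27962.5 after sorting. In mouse 1 and the sorted pool these lay below the medians of neurons with no valid barcode. Without the deepest neurons of each library, the top 10% by transcriptome UMIs, there were 135 BLA-valid neurons, 51 of them L5-S100b and 16 L6-Syt6. The part of depth in the BLA shares was not tested further.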

How the data were processed

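Projectome libraries, made by PCR of the barcoded EGFP transcripts from 10x Genomics cDNA, were analysed for 3 unsorted mice and 1 FAC-sorted library. Per the methods of the study, the authors matched reads to the 5 barcodes with a modified deMULTIplex and up to 2 mismatches, and deposited raw UMI counts per cell and barcode, with cells recovered by Cell Ranger on mm10. The deposited tables list a count of 1 as 0 for BLA. Cell types, subtypes and transcriptome UMI counts came from the annotation of the authors, who left out cells above the 95th percentile of summed barcode UMIs. Per the study's methods, very high barcode sums might come from doublets or from biased PCR. Cells above its upper limits on genes and transcriptome UMIs were treated there as potential doublets. No doublet caller was run here, so that doublets among cells with several barcodes were not tested. The deposited percent of mitochondrial UMIs enters no result. The 30 other columns of the annotation tables, gene expression and EGFP counts were not analysed here.

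The deposited reads were recounted with the same rule, and the recount gave the same counts apart from entries of 1. Thresholds were read from the joined table of the authors as the largest count it sets to 0. The resulting BLA call equalled that of the authors in 8210 of 8210 neurons. Libraries were the units of all tests: within-library differences were tested by exact two-sided sign-flip permutation, 1 library against 3 by exact one-sided permutation, and p-values were adjusted by Benjamini-Hochberg within each family. Medians were compared in libraries with at least 3 neurons on each side. The p-values cover the spread between these 4 libraries. Shares have exact 95% Clopper-Pearson intervals, and a count of 0 allows 3 counts of the total. PCR reads of 1 molecule are not independent, and cells of 1 library share its background.

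Alternatives were other thresholds, exact matches, UMIs of at least 2 reads, shared UMIs given to the leading barcode, thinned reads, leaving out deep neurons and leaving out each library. Leaving out cell barcodes found in more than 1 library was added after seeing the data. All cell types, subtypes, libraries and barcodes were named, with the 3 commonest 1-mismatch sequences. The cells and lists were chosen with earlier results of these data known. The statistics were tested on simulated data. Python 3.11.15, numpy 2.4.6, pandas 2.3.3 and scipy 1.17.1 were used.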

Additional observations from a re-analysis of the deposited data

Results flagged for a closer look

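Cells without an annotation held BLA signal that no comparison of cell types or subtypes above used. The first group was left out by a sum of barcode UMIs that includes BLA, so that high BLA counts there follow in part from the selection, and its values are a description. It held 58.2% of all BLA UMIs of the tables. Above the 95th percentile of summed barcode UMIs of their library, where the authors left cells out, 624 of 1241 cells had BLA above 35 UMIs, against 167 of 20047 annotated cells. They were 112 of 403, 187 of 372 and 221 of 362 such cells in mice 1, 2 and 3 and 104 of 104 in the sorted pool, and 1 of them had BLA as its only barcode above threshold. These cells carried 69.6%, 68.0% and 65.8% of all BLA UMIs of the tables in the unsorted mice and 30.1% in the sorted pool, with up to 1241 BLA UMIs in a cell. Of the 3500 other cells without an annotation, which this sum did not leave out, 5 were above the threshold, all in the sorted pool. The 595 excitatory neurons without a subtype did have a cell type annotation. They were among the 8805 excitatory neurons above, but in no subtype comparison. Of them, 4 were above the threshold, 1 in each library (0.672%), with a median transcriptome of 4780 UMIs in the class.

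The order of the 2 subtypes with the highest BLA-valid share differed between unsorted and sorted cells. L5-S100b exceeded L2/3-Calb1 by 1.12, 3.25 and 6.26 percentage points in mice 1, 2 and 3, 3.54 on average, whereas in the sorted pool the difference was -8.71. Over the 4 libraries the pair had p = 0.875 (exact sign-flip permutation test). The change of order between unsorted and sorted cells was not tested, and it rested on 7 of 38 sorted L2/3-Calb1 neurons. The sorted order turned under some settings and stayed under others. L2/3-Calb1 had 1 of 38 and L5-S100b 11 of 278 with thinned reads, 1 of 38 and 12 of 278 with UMIs of at least 2 reads, and 15 of 38 and 165 of 278 at the background limit. The order stayed with shared UMIs given to the leading barcode (6 of 38 and 18 of 278), with exact matches (7 and 24) and at 1.5 times the threshold (5 and 16).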

How the results depend on the processing

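With 4 libraries no test could pass 0.05, so only directions and sizes were compared. Of 377 alternative values for 32 results, 336 kept the direction or stayed within 1.5 times a count. Every alternative value did so in 18 of the 32 results. The settings reuse largely the same cells and reads, so these values are not independent. BLA-valid neurons numbered 1461 with the threshold at the background limit, 91 at 1.5 times the threshold, 60 with UMIs of at least 2 reads, 89 with thinned reads and 84 (without the sorted pool) to 141 without 1 library. BLA-only neurons numbered 208 at that limit and 12 with the other thresholds at 50%. The neighbouring subtype pairs with 1 direction in every library, 0 in the report, numbered 5 at that limit, 1 with exact matches, UMIs of at least 2 reads, thinned reads, deep neurons left out or shared cell barcodes left out (an alternative chosen after seeing the data), and 0 to 1 without 1 library.

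These differences changed sign. At the background limit the share difference was -3.43 for L2/3-Calb1 and 9.96 for L5-Bcl6, which was also 0.0302 at 1.5 times the threshold and 0.0410 with UMIs of at least 2 reads. Strength differences were -4.17 UMIs for L2/3-Calb1 with shared UMIs resolved and, for L2/3-Rorb, -2 with exact matches and -0.167 to 11.0 without 1 library. For L5-S100b they were 2.50 at that limit, 10.2 at 1.5 times the threshold, 4.12 with at least 2 reads, 10.1 with shared UMIs resolved, 2.38 with thinned reads, 1.62 without deep neurons and -7.67 to 3.00 without 1 library. For L6-Npy they were 0 at that limit, -2.38 at 1.5 times the threshold, -1.38 with shared UMIs resolved and -8.00 with thinned reads, and without 1 library they kept their sign at 5.83 (without mouse 2) to 17.3 (without mouse 3). The sorted minus unsorted BLA-only share was 13.7 with thinned reads, and the L5-S100b BLA-only difference 3.71 with all 5 thresholds at that limit. BLA minus AI was -9.40 with the BLA threshold and -9.70 with all 5 there, BLA minus DMS 2.48 at 1.5 times the threshold and 2.02 with at least 2 reads, and BLA minus LH 7.38 with at least 2 reads. Some strength differences had no value under stricter settings, since under 3 libraries held enough neurons. Fewer valid neurons were left under the stricter settings and more, 1461, at the background limit. The cause of the sign changes was not tested. In the same direction throughout, the L5-S100b minus other share spanned 3.24 to 18.3, the L6-Syt6 one -9.59 to -1.72 and the sorted minus unsorted valid share 0.292 to 34.8. Sorted and unsorted cells could not be paired, because the sorted pool came from other mice.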
